A study of Macaca mulatta with 23 samples.

Results

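CA1 and the dentate gyrus (DG), fields of the hippocampus, were compared within 5 aged female rhesus macaques, each of which gave a CA1 and a DG array. These 10 of the 23 arrays in the series were chosen by their titles, as the arrays of animals 20 years old or more that had both regions: animals 2, 3, 7, 10 and 11, aged 20.25 to 25.00 years (mean 23.3 ± 1.89, SD). The CA1 array of a further aged animal, number 6, had no DG partner here and entered no paired comparison. Values for 6 young animals of 6.50 to 7.75 years (12 arrays) are set beside the aged ones where stated; the ages of young animal 1 disagree between its titles, at 6.50 for CA1 and 7.75 for DG. The labels name no genotype or treatment that separates these groups. All animals had been scored on a delayed matching task, were anesthetized with ketamine and killed with pentobarbital, and the regions were dissected from one hippocampus of each animal, so an array reads all the cell types in a piece of tissue.

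The hippocampus passes signals through a chain of excitatory neurons. Granule cells of the dentate gyrus receive the cortical input and send mossy fibers to CA3, whose pyramidal neurons project to the pyramidal neurons of CA1, the main output field. Granule cells depend on the transcription factor PROX1 for their identity, and pyramidal neurons of the fields are told apart by other transcription factors, adhesion molecules, receptors and channels.

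RNA was read on Affymetrix Rhesus arrays, and values are log2 MAS5 signals, in which a difference of 1 is a 2-fold change. Over the 10 arrays the median signal was 107 to 137 (6.74 to 7.10 on the log2 scale), and 8 to 31 of the 52766 probe sets were at 0. The 3'/5' actin ratio, a gauge of RNA integrity, was 1.05 ± 0.29 (log2, SD, n = 5) in CA1 and 0.95 ± 0.28 (n = 5) in DG. The number of arrays, 5 per region, limits the precision. A first principal component with 38.7% of the variance separated CA1 from DG in 4 animals, with CA1 scores of -56.4 to -32.1 against DG scores of 25.9 to 34.4. The CA1 array of animal 3 stood apart from its label: it scored 27.8, inside the DG range. Its PROX1 signal, 11.29, was the highest of the 5 CA1 arrays and above its own DG array at 10.89. The mean over 14 granule cell genes was 10.85 in that CA1 array, against 10.15 to 10.31 in the other 4, and 10.76 in the DG array of animal 3, the lowest of the 5 DG arrays, against 10.98 to 11.07. The actin ratio of that CA1 array was 0.74, the lowest of the 5 (0.84 to 1.44 in the others). Results are therefore given for all 5 animals and for the 4 without animal 3. The granule cell genes served in that choice, so their values in the 4 animals are a description with no test. Values by array are listed in the order of animals 2, 3, 7, 10 and 11.

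The signal of 2900 of 26573 probe sets tested differed between CA1 and DG in the 5 animals (limma with the animal as a block, Benjamini-Hochberg adjusted p under 0.05). Of these, 1320 were higher in CA1 (4.97%) and 1580 were lower (5.95%), and 514 differed by more than 2-fold. The sign was the same in all 5 animals for 2480 of them, and the CA1 and DG signals did not overlap for 1199. Calling itself favors such probe sets, and the shares over all 26573 were not counted, so these 2 counts are a description only. Without animal 3 the calls rose to 3135 higher (11.7% of 26696) and 3368 lower (12.6%), and 2876 of the 2900 were called again with the same sign. Leaving out any other pair, and so keeping animal 3, cut the calls to 129 higher and 160 lower without animal 2, 86 and 149 without animal 7, 45 and 42 without animal 10, and 83 and 91 without animal 11. In bulk tissue, a lower signal from fewer cells of a type and from less RNA per cell cannot be told apart.

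Counts for gene lists are read against all named genes. Of 9880 named genes tested, 6.87% were higher in CA1 and 5.30% lower, with a median difference of 0.03. Without animal 3 the shares were 15.5% higher and 10.9% lower of 9920, with the same median of 0.03. Differences are CA1 minus DG of the log2 signal with the standard error of the fit, and "called" means an adjusted p under 0.05. Where signals of the lower region fall below the median of their array, the size of a difference is not well bounded. Among the genes named in this text it held in at least 3 of the 5 lower arrays for MET, RXFP1, FMOD, SH2D4B and NPY2R. It also held for WFIKKN2, ADGRG2, DCLK3, CACNA1C, XCL1 and MYCBPAP.

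The 4 genes used to mark the regions, 2 for granule cells and 2 for CA1, were each called in the direction of their region. PROX1 had CA1 signals of 10.11, 11.29, 9.49, 9.52 and 10.13 and DG signals of 11.55, 10.89, 10.99, 11.15 and 11.25. The groups overlapped only through the CA1 array of animal 3. The PROX1 difference was -1.06 ± 0.27 (adjusted p = 0.0408) in 5 animals, and a second PROX1 probe set gave -1.12 ± 0.24 in 5. Without animal 3 the first gave -1.42 ± 0.11, with no test because PROX1 served to single out that animal. C1QL2, a secreted C1q-like synaptic protein of mossy fibers, read 8.95, 10.84, 10.29, 10.16 and 10.38 in CA1 and 11.28, 11.27, 11.56, 12.04 and 11.50 in DG. All 5 DG values lay above all CA1 values, and the difference was -1.41 ± 0.23 (adjusted p = 0.0153). MET, the hepatocyte growth factor receptor, read 9.08, 8.38, 9.49, 9.81 and 9.10 in CA1 and 7.86, 6.77, 7.31, 6.60 and 6.07 in DG. Every CA1 value exceeded every DG value, with a difference of 2.25 ± 0.29 (adjusted p = 0.00881) whose size is not well bounded, since 3 DG signals were below their array medians. MEIS2, a homeodomain transcription factor, read 11.19, 9.66, 11.12, 10.80 and 11.03 in CA1 and 9.21, 9.17, 8.84, 8.27 and 9.10 in DG. These groups did not overlap, although the CA1 value of animal 3 was the lowest, and the difference was 1.84 ± 0.26 (adjusted p = 0.0107), or 2.18 ± 0.12 without that animal. Leaving out animal 2, 7, 10 or 11 in turn kept the direction of each called gene, at an adjusted p of 0.0258 to 0.138, and MET stayed called in each case. Here and below, the direction could not change for a gene with one sign in all 5 animals.

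**Figure D1:**
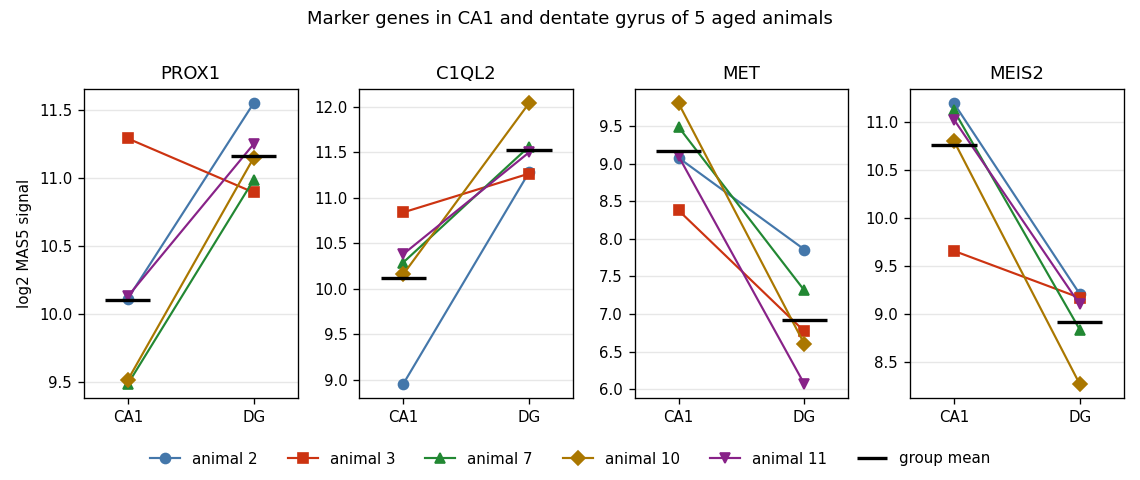
Log2 MAS5 signal of 4 marker genes (vertical axes, one scale per panel) in the CA1 and DG arrays of 5 aged animals; lines join the arrays of an animal and black bars are group means (n = 5). PROX1 and C1QL2 are higher in DG and MET and MEIS2 in CA1, except that PROX1 of animal 3 (squares) is 11.29 in CA1 and 10.89 in DG.

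Of 14 granule cell genes tested, 6 were called lower in CA1 and 0 higher, with a median difference of -0.44. In 4 animals the median was -0.55. These genes served to single out animal 3, so their 4-animal values are a description with no test. GRP, gastrin-releasing peptide, read 8.65, 11.04, 8.50, 9.49 and 8.10 in CA1 and 11.49, 10.27, 11.09, 11.72 and 11.17 in DG. Only animal 3 had more GRP signal in CA1, and the difference was -1.99 ± 0.49 (adjusted p = 0.0380) with it and -2.68 ± 0.14 without. BDNF, a neurotrophin carried in mossy fibers, read 8.70, 9.66, 8.78, 8.87 and 8.29 in CA1 and 9.78, 10.13, 10.01, 9.92 and 9.99 in DG. The groups did not overlap, with a difference of -1.11 ± 0.16 (adjusted p = 0.0118). STXBP6, a SNARE-binding protein, differed by -1.13 ± 0.26 (adjusted p = 0.0342), and its dimmer probe set by -0.55 ± 0.25, which was not called. AKAP7, an anchor for protein kinase A, differed by -0.54 ± 0.10 (adjusted p = 0.0171), whereas its second probe set gave 0.28 ± 0.17. When animal 2, 7, 10 or 11 was left out, the adjusted p of the called genes was 0.0449 to 0.131, with no change of direction.

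Of 12 CA1 pyramidal neuron genes tested, 6 were called higher in CA1 and 0 lower, with a median difference of 1.09 in 5 animals and 1.21 in 4. Averaged over the list, CA1 exceeded DG by 0.46, 0.58, 0.90, 1.42 and 1.11, so animal 3 lay inside the range of the others here, unlike for the granule cell genes, where it differed by 0.09 against -0.92 to -0.73. ETV1, an ETS transcription factor, read 11.70, 11.20, 12.33, 12.29 and 12.14 in CA1 and 10.77, 10.38, 10.80, 10.32 and 10.34 in DG. CA1 was above DG in every array, and the difference was 1.41 ± 0.17 (adjusted p = 0.00797), with 1.55 ± 0.23 and 0.53 ± 0.19 on its dimmer probe sets. CCN3, a matricellular protein, read 10.53, 10.04, 11.19, 12.19 and 11.20 in CA1 and 9.74, 9.82, 9.48, 9.88 and 9.34 in DG, again without overlap, and differed by 1.38 ± 0.27 (adjusted p = 0.0221). Both genes kept a positive difference in animal 3, 0.82 for ETV1 and 0.23 for CCN3. WFS1, an endoplasmic reticulum protein used as a CA1 marker in rodents, was not called on its brightest probe set: CA1 read 10.59, 10.75, 10.52, 10.61 and 10.68 and DG 10.80, 10.51, 10.73, 10.85 and 10.82, a difference of -0.11 ± 0.10 (adjusted p = 0.469). A dimmer WFS1 probe set gave -0.35 ± 0.10 (adjusted p = 0.0595) in 5 animals and -0.38 ± 0.12 (adjusted p = 0.0428) in 4, and so was called lower in CA1 without animal 3. The called genes had an adjusted p of 0.0290 to 0.0897 when animal 2, 7, 10 or 11 was left out, all in the same direction, and ETV1 stayed called in each case.

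Genes linked to CA2, CA3 and mossy cells were divided, with 1 called higher and 2 lower of 7 tested and a median of 0.00. SPOCK1, a testican proteoglycan, was lower in CA1 with a difference of -0.86 ± 0.14 (adjusted p = 0.0140), and CPNE4, a copine, with a difference of -0.77 ± 0.20 (adjusted p = 0.0425). NECAB2, a calcium-binding protein, was higher by 0.46 ± 0.11 (adjusted p = 0.0362) although the groups overlapped. Subicular genes were divided too, with 1 called higher and 3 lower of 6. The higher one was TSHZ2, at 2.17 (adjusted p = 0.00902), which is also read among the patterning factors below. LPL, lipoprotein lipase, read 10.93, 11.62, 9.97, 10.56 and 10.52 in CA1 and 12.31, 11.97, 12.09, 11.95 and 12.39 in DG, and differed by -1.42 ± 0.22 (adjusted p = 0.0130). Of 3 further LPL probe sets, 1 gave -1.50 ± 0.21 and the others 0.00 ± 0.10 and 0.09 ± 0.16. NTNG2, a membrane-anchored netrin, read 9.11, 10.39, 9.45, 9.90 and 9.41 in CA1 and 10.91, 10.81, 11.00, 11.20 and 11.03 in DG, with no overlap and a difference of -1.34 ± 0.18 (adjusted p = 0.0104). An adjusted p of 0.0229 to 0.142, with the direction kept, was found for the called genes without animal 2, 7, 10 or 11.

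Among called genes with one sign in all 5 animals, the largest differences toward CA1 belonged to a hormone receptor, a matrix protein, signalling regulators and transcription factors. RXFP1, the relaxin receptor, read 10.21, 7.22, 9.38, 10.29 and 9.73 in CA1 and 7.67, 5.04, 7.48, 6.29 and 6.86 in DG. In each animal CA1 was higher, although the level of both arrays of animal 3 was low enough that the groups overlapped. Its difference was 2.70 ± 0.28 (adjusted p = 0.00723), with 3 DG signals below their array medians. FMOD, the collagen-binding proteoglycan fibromodulin, read 9.23, 7.16, 9.48, 9.99 and 9.58 in CA1 and 7.39, 6.44, 6.89, 6.46 and 6.87 in DG. The CA1 value of animal 3 was the only one inside the DG range, and the difference was 2.28 ± 0.34 (adjusted p = 0.0125). Its size is not well bounded, since 4 DG signals were below their array medians. SH2D4B, an SH2 domain protein, read 7.45, 8.29, 8.61, 7.59 and 8.37 in CA1 and 6.21, 5.25, 6.32, 3.91 and 5.70 in DG, a mean difference of 2.59. All 5 SH2D4B signals in DG were below their array medians, so it reached the filter through CA1 alone and its values are a description with no test. TOX, an HMG-box transcription regulator, read 9.99, 8.40, 9.46, 10.14 and 9.88 in CA1 and 8.22, 5.70, 8.02, 7.81 and 8.33 in DG, again apart, with a difference of 1.96 ± 0.19 (adjusted p = 0.00673) and 1.94 ± 0.28 for its second probe set. GRB14, an adaptor that binds the insulin receptor, differed by 1.80 ± 0.33 (adjusted p = 0.0191), but by 0.13 in animal 3 alone. Without animal 2, 7, 10 or 11 the adjusted p of the called genes was 0.0200 to 0.0807. RXFP1 and TOX stayed called in each case, and GRB14 lost its call in each. The direction of these genes could not change, since the ranking took genes with one sign in all 5 animals.

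Toward DG, the ranking of called genes with one sign in all 5 animals was led by RTP5, TSPAN18, HTR7 and AQP3. RTP5, of the receptor transporter family, read 7.73, 11.93, 9.71, 9.81 and 7.48 in CA1 and 12.14, 12.62, 12.16, 12.45 and 12.08 in DG. The DG arrays were close to each other and above all CA1 arrays, and the difference was -2.96 ± 0.49, or 7.77-fold lower in CA1 (adjusted p = 0.0153). TSPAN18, a tetraspanin, read 8.49, 11.25, 8.04, 8.48 and 7.06 in CA1 and 11.28, 11.82, 11.67, 11.72 and 11.50 in DG, with no overlap and a difference of -2.93 ± 0.45 (adjusted p = 0.0130); its dimmer probe set gave -3.39 ± 0.58. AQP3, a channel for water and glycerol, read 8.06, 10.71, 8.98, 8.56 and 9.08 in CA1 and 10.67, 11.46, 11.19, 11.25 and 11.02 in DG. It was lower in CA1 in each animal, with a difference of -2.04 ± 0.25 on average (adjusted p = 0.00797). PMEL, the amyloid-forming protein of melanosomes, read 7.20, 8.54, 6.38, 7.30 and 7.18 in CA1 and 8.65, 8.95, 9.29, 9.01 and 9.29 in DG, apart in all arrays, with a difference of -1.72 ± 0.30 (adjusted p = 0.0170). CRACDL was the one of the 10 leading genes toward DG in which animal 3, at -2.44, was not the animal nearest to 0; its mean difference was -1.76 ± 0.28 (adjusted p = 0.0143). MYCL, a MYC family factor, differed by -1.58 ± 0.27 (adjusted p = 0.0167). With animal 2, 7, 10 or 11 left out instead, the adjusted p of these called genes was 0.0382 to 0.0749. RTP5, TSPAN18, PMEL and MYCL lost their call in each case. The direction of these genes could not change, since the ranking took genes with one sign in all 5 animals.

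**Figure D2:**
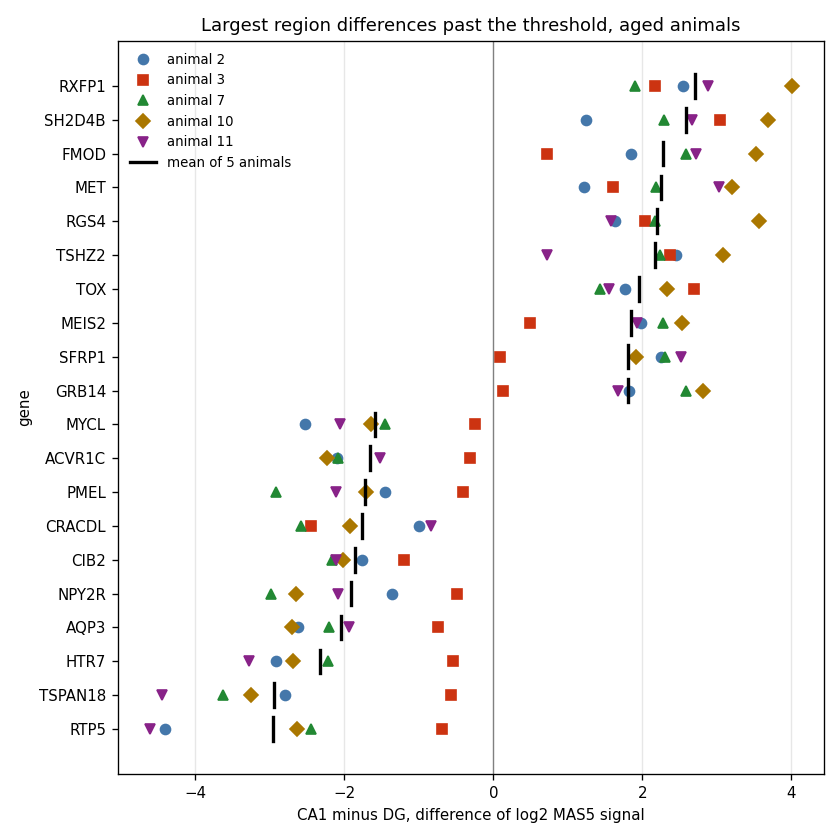
CA1 minus DG difference of log2 MAS5 signal (horizontal axis) of the 10 genes with the largest difference in each direction among called genes that had one sign in all 5 animals, for each of 5 aged animals (symbols) and their mean (black bars). Animal 3 (squares) lies nearest to 0 for 13 of the 20 genes, and not for RXFP1, SH2D4B, MET, RGS4, TSHZ2, TOX and CRACDL.

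Genes with the opposite sign in animal 3 stood outside that ranking, and some of their differences were larger. WFIKKN2, a secreted binding protein of GDF-type ligands, read 2.58, 7.88, 4.09, 3.32 and 4.39 in CA1 and 8.70, 7.63, 8.98, 8.90 and 9.46 in DG. Its CA1 signal was below the array median in the 4 other animals, so the size is not well bounded there. The difference averaged -4.28 in 5 animals. In the 4 others the difference averaged -5.41. Both are given with no test because, apart from animal 3, the gene reached the filter through DG alone. ADGRG2, an adhesion G protein-coupled receptor, read 6.13, 10.65, 6.49, 8.63 and 6.34 in CA1 and 11.01, 10.04, 11.05, 11.02 and 11.07 in DG. The CA1 array of animal 3 was again the one in the range of DG, and the difference went from -3.19 ± 0.72 (adjusted p = 0.0311) to -4.14 ± 0.35 (adjusted p = 0.000115) without it, of a size not well bounded because 3 CA1 signals were below their array medians. PTPRS, a receptor tyrosine phosphatase of synapses and axons, read 9.60, 12.35, 9.05, 10.01 and 8.87 in CA1 and 12.57, 11.80, 12.46, 12.49 and 12.62 in DG. It went from -2.41 ± 0.53 (adjusted p = 0.0290) to -3.15 ± 0.18 (adjusted p = 3.81e-05), and its other 2 probe sets gave -0.66 ± 0.13 and -2.53 ± 0.55 in 5 animals. NIPAL4, a magnesium transporter family member, was called in 4 animals only, at 2.10 ± 0.20 (adjusted p = 0.000188), against 1.23 ± 0.62 (adjusted p = 0.213) with animal 3, whose own difference was -2.22. DCLK3, a doublecortin-like kinase, averaged -1.87 in 5 animals and -2.50 in 4. Apart from animal 3 it too reached the filter through DG alone, and it has no test. XCL1, a chemokine, was likewise called in 4 animals, at -2.38 ± 0.59 (adjusted p = 0.0170), and not in 5, at -1.64 ± 0.72 (adjusted p = 0.162). Over the 5 animals, 3 CA1 signals and 1 DG signal of XCL1 were below their array medians, so its size is not well bounded. Leaving out animal 2, 7, 10 or 11 in turn kept the direction of ADGRG2 and PTPRS, at an adjusted p of 0.0959 to 0.115.

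Transcription factors that pattern the cortex differed in both directions. Of 23 homeodomain and zinc finger factors tested, 3 were called higher and 3 lower in 5 animals, and 9 higher and 5 lower in 4, with medians of 0.10 and 0.12. TSHZ2, a teashirt zinc finger homeobox factor, read 10.43, 8.33, 9.89, 9.86 and 9.47 in CA1 and 7.98, 5.95, 7.64, 6.77 and 8.74 in DG. CA1 was higher in each animal, animal 3 included at 2.37, and the mean difference was 2.17 ± 0.29 (adjusted p = 0.00902). EMX2, a cortical patterning homeobox factor that the dentate gyrus needs to form, was lower in CA1: 9.54, 10.11, 9.18, 9.67 and 9.47 against 10.23, 10.21, 10.33, 10.44 and 10.14, with no overlap and a difference of -0.68 ± 0.14 (adjusted p = 0.0259). ZBTB20, a zinc finger repressor of the developing hippocampus, read 12.00, 13.00, 12.33, 12.09 and 12.37 in CA1 and 13.03, 12.86, 13.10, 13.21 and 13.27 in DG. Animal 3 was the only one with more in CA1, and the difference was -0.74 ± 0.17 (adjusted p = 0.0307). Among 8 genes of immature neurons and progenitors, SOX11, an SRY-related factor, was higher in CA1 without overlap, by 1.09 ± 0.17 (adjusted p = 0.0127). DCX, the microtubule protein doublecortin known from newborn granule neurons, read 10.27, 9.99, 10.11, 10.35 and 10.26 in CA1 and 9.59, 9.42, 9.59, 9.83 and 9.76 in DG. It was higher in CA1 in every animal, by 0.50 to 0.69 and on average by 0.56 ± 0.09 (adjusted p = 0.0129). NEUROD6, a neuronal bHLH factor, was lower in CA1 with a difference of -0.65 ± 0.12 (adjusted p = 0.0191), and no other gene of that list was called in 5 animals. When animal 2, 7, 10 or 11 was left out, the adjusted p of the called genes was 0.0229 to 0.114, with no change of direction.

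Glutamate receptor genes numbered 8 tested, 1 called higher and 2 lower, with a median difference of -0.52. GRIK1 and GRIK2, kainate receptor subunits, differed in opposite directions. GRIK1 read 10.30, 9.37, 10.15, 10.71 and 10.32 in CA1 and 9.41, 9.41, 9.01, 9.47 and 9.22 in DG, a difference of 0.86 ± 0.18 (adjusted p = 0.0257) with -0.04 in animal 3. GRIK2 read 7.75, 9.07, 7.85, 8.07 and 8.43 in CA1 and 8.56, 8.93, 9.16, 9.26 and 9.71 in DG, a difference of -0.89 ± 0.21 (adjusted p = 0.0350). GRIN1, the obligate NMDA receptor subunit, was lower in CA1 in each animal, with a difference of -1.03 ± 0.23 on average (adjusted p = 0.0299). Of 5 GABA-A receptor genes, 2 were called higher and 1 lower. GABRE, the epsilon subunit, was higher in CA1 by 1.15 ± 0.28 (adjusted p = 0.0382) and by 1.51 ± 0.15 without animal 3. GABRA3, an alpha subunit, was higher without overlap by 0.67 ± 0.13 (adjusted p = 0.0215), and GABRA2, another, was lower with a difference of -0.77 ± 0.15 (adjusted p = 0.0222). The called genes had an adjusted p of 0.0556 to 0.133 when animal 2, 7, 10 or 11 was left out, all in the same direction.

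Of 12 receptors for monoamines and acetylcholine, 1 was called higher and 3 lower in CA1, with a median of -0.20; in 4 animals 1 was higher and 5 lower. HTR7, a serotonin receptor that raises cyclic AMP, read 5.93, 9.04, 7.32, 7.04 and 5.95 in CA1 and 8.85, 9.59, 9.54, 9.73 and 9.23 in DG. DG was higher in each animal, least so in animal 3, and the difference was -2.33 ± 0.34 (adjusted p = 0.0119), with 2 CA1 signals below their array medians; a dimmer probe set gave -0.68 ± 0.32 and was not called. HTR1E, a serotonin receptor that lowers cyclic AMP, differed by -0.75 ± 0.13 (adjusted p = 0.0170), and CHRM1, a muscarinic receptor, with a difference of -0.93 ± 0.17 (adjusted p = 0.0195). HRH1, a histamine receptor, was the one called higher, at 8.80, 8.48, 8.50, 8.85 and 8.47 in CA1 and 7.85, 8.11, 7.91, 8.18 and 7.89 in DG, without overlap and by 0.63 ± 0.13 (adjusted p = 0.0229). An adjusted p of 0.0519 to 0.0962, with the direction kept, was found for the called genes without animal 2, 7, 10 or 11.

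Of 18 neuropeptides and their receptors, 4 were called higher and 2 lower, and in 4 animals 8 and 5. NPY2R, a neuropeptide Y receptor of mossy fibers, read 6.69, 8.09, 5.67, 5.32 and 5.78 in CA1 and 8.04, 8.57, 8.65, 7.97 and 7.87 in DG. The CA1 value of animal 3 reached the DG range, and the mean difference was -1.91. Apart from animal 3, NPY2R reached the filter through DG alone, so, though counted among the 2 lower, it is given with no test. SSTR2, a somatostatin receptor, was higher in CA1 without overlap, by 0.64 ± 0.11 (adjusted p = 0.0167), and CRH, the corticotropin-releasing hormone, was higher by 0.78 ± 0.20 (adjusted p = 0.0413) with overlapping groups and -0.14 in animal 3. VIP, a peptide of interneurons, read 7.47, 7.52, 7.94, 8.11 and 7.57 in CA1 and 6.58, 7.41, 6.67, 7.14 and 7.01 in DG, apart in all arrays, with a difference of 0.76 ± 0.20 (adjusted p = 0.0469). Of 10 interneuron genes, VIP among them, 3 were called higher and 1 lower, with a median of 0.33, and 6 higher and 1 lower in 4 animals. LHX6, a transcription factor of interneurons born in the medial ganglionic eminence, read 9.31, 8.79, 9.31, 9.39 and 9.30 in CA1 and 8.33, 8.07, 8.54, 8.38 and 8.65 in DG, with no overlap and a difference of 0.83 ± 0.11 (adjusted p = 0.00902). GAD2, a GABA-synthesizing enzyme, differed by 0.99 ± 0.20 (adjusted p = 0.0226) on its brighter probe set and by 0.00 ± 0.15 on the other. KIT, a receptor tyrosine kinase, was lower in CA1 with a difference of -0.87 ± 0.15 (adjusted p = 0.0164). No called gene turned without animal 2, 7, 10 or 11, and the adjusted p was then 0.0401 to 0.155.

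Of 32 potassium channel genes tested, 6 were called lower and 1 higher in CA1, with a median of -0.13, and 13 lower and 4 higher without animal 3. KCNIP2, a subunit that regulates A-type Kv4 channels, read 10.32, 11.56, 10.45, 10.68 and 10.23 in CA1 and 11.97, 11.85, 12.02, 12.16 and 12.00 in DG. Every DG value lay above every CA1 value, and the difference was -1.36 ± 0.20, or 2.56-fold lower in CA1 (adjusted p = 0.0119), with -1.64 ± 0.29 on the dimmer probe set. KCNA4, an A-type channel subunit, read 6.29, 7.79, 6.85, 6.93 and 6.51 in CA1 and 8.25, 7.84, 8.14, 8.15 and 8.12 in DG, apart in all arrays, with a difference of -1.23 ± 0.26 (adjusted p = 0.0272). KCNJ6, a G protein-gated inward rectifier, differed by -0.79 ± 0.18 (adjusted p = 0.0308) with animal 3 the only one higher in CA1, and KCNN1, a small-conductance calcium-activated channel, by -0.62 ± 0.13 (adjusted p = 0.0250). With animal 2, 7, 10 or 11 left out instead, these called genes kept their direction at an adjusted p of 0.0532 to 0.112.

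Sodium, calcium and HCN channel genes had 5 called lower and 2 higher of 17, with a median of -0.39, and 10 lower and 2 higher in 4 animals. CACNG2, the AMPA receptor auxiliary subunit stargazin, read 9.23, 9.79, 8.52, 8.94 and 8.39 in CA1 and 9.92, 10.36, 9.73, 10.13 and 9.76 in DG. It was lower in CA1 in each animal, with a difference of -1.01 ± 0.14 on average (adjusted p = 0.0104). CACNA1C, an L-type calcium channel, read 6.66, 6.52, 5.95, 5.43 and 6.34 in CA1 and 7.15, 7.59, 7.22, 7.45 and 7.13 in DG, a mean difference of -1.13. All 5 CA1 signals of CACNA1C were below their array medians, so it reached the filter through DG alone and, though counted among the 5, is given with no test. SCN3B, a sodium channel beta subunit, differed by -0.66 ± 0.11 (adjusted p = 0.0140), and its other probe sets by -0.67 ± 0.10 and -0.84 ± 0.10. CACNA2D2, an alpha2-delta calcium channel subunit, was higher in CA1, at 9.52, 8.29, 9.34, 9.88 and 9.54 against 8.48, 8.25, 8.34, 8.61 and 8.55, by 0.87 ± 0.17 (adjusted p = 0.0229), and by 0.05 in animal 3. Leaving out animal 2, 7, 10 or 11 in turn kept the direction of each called gene, at an adjusted p of 0.0348 to 0.0969.

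Of 24 calcium signalling genes, 8 were called lower and 2 higher in CA1, with a median of -0.11, and 10 lower and 6 higher in 4 animals. CIB2, a calcium- and integrin-binding protein, read 8.73, 10.13, 8.76, 9.38 and 8.94 in CA1 and 10.50, 11.33, 10.92, 11.40 and 11.05 in DG. The groups were apart, the difference was -1.85 ± 0.14 (adjusted p = 0.00585), and the second probe set gave -2.22 ± 0.19. CAMK2D, a subunit of calcium/calmodulin-dependent kinase II, went the other way, at 12.70, 12.10, 13.11, 13.22 and 13.04 in CA1 and 12.04, 10.31, 11.71, 11.39 and 11.40 in DG. It differed by 1.47 ± 0.16 (adjusted p = 0.00723), by 1.79 in animal 3, and by 1.22 ± 0.18 and 1.39 ± 0.20 on its other probe sets. CAMK1, calcium/calmodulin-dependent kinase I, was lower with a difference of -1.12 ± 0.16 (adjusted p = 0.0119), and ATP2B3, a plasma membrane calcium pump, with a difference of -1.15 ± 0.16 (adjusted p = 0.0104), both without overlap. When animal 2, 7, 10 or 11 was left out, the adjusted p of the called genes was 0.0115 to 0.0655, with no change of direction, and CIB2 and CAMK2D stayed called in each case.

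Of 29 regulators of G protein and cyclic AMP signalling, 6 were called higher and 2 lower in CA1, with a median of 0.08, and 8 higher and 4 lower in 4 animals. RGS4, which speeds the shut-off of Gi and Gq proteins, read 13.69, 11.79, 13.32, 13.46 and 13.09 in CA1 and 12.06, 9.75, 11.15, 9.90 and 11.51 in DG. The difference was positive in each animal, with a mean of 2.20 ± 0.25 or 4.58-fold (adjusted p = 0.00746), and 2.12 ± 0.31 and 2.07 ± 0.19 on 2 other probe sets. ADCY8, a calcium-stimulated adenylyl cyclase, read 9.45, 9.48, 9.51, 10.03 and 9.70 in CA1 and 8.77, 9.03, 8.90, 8.89 and 9.01 in DG, with no overlap and a difference of 0.71 ± 0.12 (adjusted p = 0.0153). PRKCB, protein kinase C beta, was higher by 1.00 ± 0.20 (adjusted p = 0.0233) on the brighter probe set and by 0.23 ± 0.12, not called, on the other. PRKAR1B, a regulatory subunit of protein kinase A, was lower with a difference of -0.46 ± 0.09 (adjusted p = 0.0222). The called genes had an adjusted p of 0.00732 to 0.0932 when animal 2, 7, 10 or 11 was left out, all in the same direction, and RGS4 stayed called in each case.

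**Figure D3:**
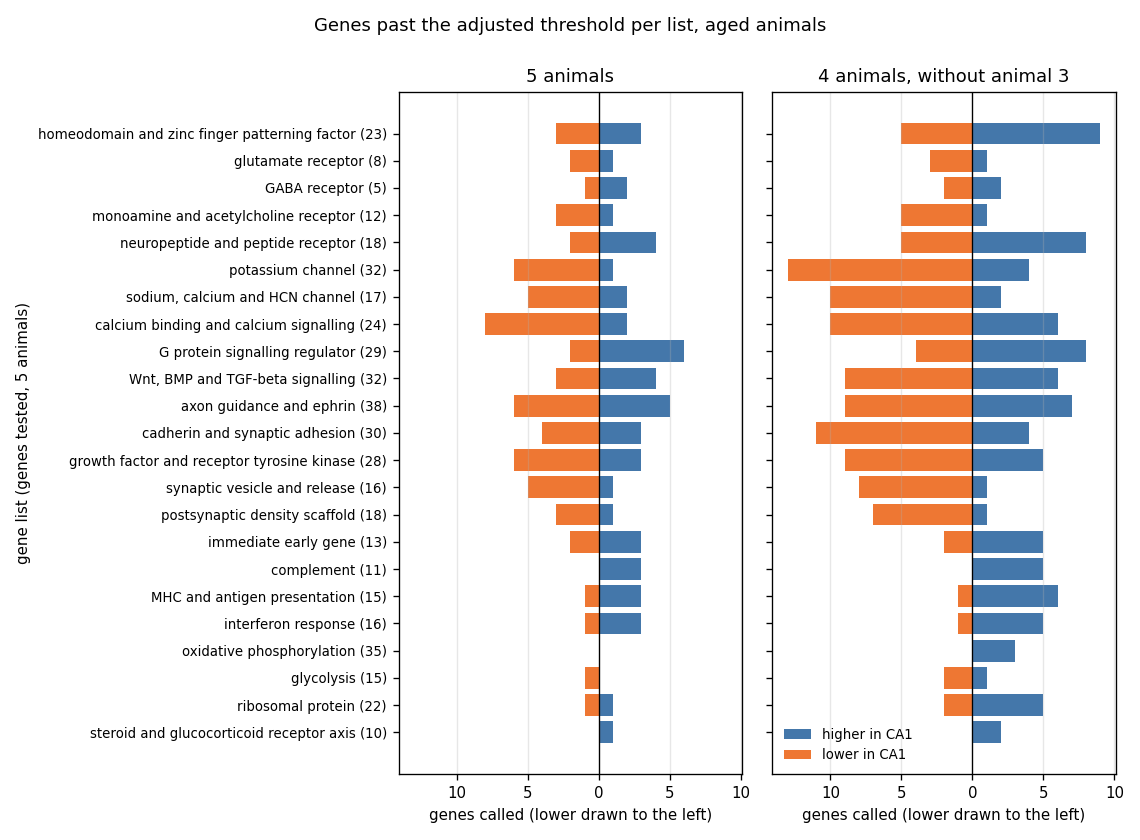
Number of genes called higher in CA1 (right of 0) and lower in CA1 (left of 0), at an adjusted p under 0.05, in 23 functional gene lists, with all 5 aged animals and with the 4 without animal 3; the number tested is in brackets. Potassium channels go from 6 lower to 13 lower and the patterning factors from 3 higher to 9 higher when animal 3 is left out. Calls rise over all named genes in the same step, from 5.30% to 10.9% lower and from 6.87% to 15.5% higher.

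Wnt, BMP and TGF-beta pathway genes had 4 called higher and 3 lower of 32, with a median of -0.11, and 6 higher and 9 lower in 4 animals. SFRP1, a secreted Wnt antagonist, read 11.14, 9.06, 10.81, 10.54 and 11.58 in CA1 and 8.90, 8.97, 8.50, 8.64 and 9.06 in DG. In the 4 other animals CA1 exceeded DG by 1.91 to 2.52, and in animal 3 by 0.08; the difference was 1.81 ± 0.31 (adjusted p = 0.0167) with it and 2.24 ± 0.12 (adjusted p = 3.81e-05) without. WNT10B, a Wnt ligand, was higher in CA1 in each animal, by 0.83 ± 0.14 (adjusted p = 0.0152), and FZD3, a Wnt receptor, lower with a difference of -0.65 ± 0.13 (adjusted p = 0.0219). DKK3, a secreted dickkopf-like protein, was lower with a difference of -0.54 ± 0.09 (adjusted p = 0.0146); of 4 dimmer DKK3 probe sets, 1 was called, at -0.83 ± 0.10, and the rest ran from -0.32 to 0.36. ACVR1C, a type I receptor for activin-like ligands, read 7.67, 9.88, 7.87, 7.76 and 8.48 in CA1 and 9.77, 10.19, 9.96, 9.99 and 10.00 in DG, with a difference of -1.65 ± 0.26 (adjusted p = 0.0138). An adjusted p of 0.05001 to 0.0956, with the direction kept, was found for the called genes without animal 2, 7, 10 or 11.

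Axon guidance genes were divided, with 5 called higher and 6 lower of 38 and a median of 0.01, and 7 higher and 9 lower in 4 animals. NRP1, a receptor for semaphorins and VEGF, read 8.73, 10.15, 8.58, 9.26 and 8.61 in CA1 and 10.35, 10.97, 10.76, 10.65 and 10.42 in DG. DG was above CA1 in every array, and the difference was -1.56 ± 0.18, or 2.95-fold lower in CA1 (adjusted p = 0.00723). EFNB2, an ephrin ligand, read 10.43, 9.92, 10.48, 10.85 and 10.57 in CA1 and 9.73, 9.20, 9.30, 9.79 and 9.55 in DG, with no overlap and a difference of 0.94 ± 0.10 (adjusted p = 0.00723) on a probe set matched by its second at 0.95 ± 0.17. NTN4, a netrin, was higher in CA1 in each animal, animal 3 included at 0.86, by 1.16 ± 0.12 (adjusted p = 0.00723). ROBO1, a Slit receptor, was lower with a difference of -0.55 ± 0.14 (adjusted p = 0.0459). No called gene turned without animal 2, 7, 10 or 11, and the adjusted p was then 0.0282 to 0.117, and NRP1, EFNB2 and NTN4 stayed called in each case.

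Cadherins and synaptic adhesion genes had 3 called higher and 4 lower of 30, with a median of -0.08, and 4 higher and 11 lower in 4 animals. FLRT1, a leucine-rich repeat adhesion protein, read 9.62, 8.73, 9.85, 9.77 and 9.57 in CA1 and 8.52, 8.21, 8.52, 8.26 and 8.09 in DG, apart in all arrays, with a difference of 1.19 ± 0.16 (adjusted p = 0.00902). Of the cadherins, CDH18 was higher in CA1 by 0.94 ± 0.13 (adjusted p = 0.0107) and CDH13 by 1.00 ± 0.17 (adjusted p = 0.0161), both without overlap. CDH12 was lower with a difference of -0.81 ± 0.17 (adjusted p = 0.0243). Among 28 growth factors and receptor tyrosine kinases, 3 were called higher and 6 lower; FGF13, an intracellular partner of sodium channels, was lower with a difference of -0.63 ± 0.11 (adjusted p = 0.0176). With animal 2, 7, 10 or 11 left out instead, these called genes kept their direction at an adjusted p of 0.0308 to 0.0969.

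Of 16 genes of transmitter release, 5 were called lower and 1 higher in CA1, with a median of -0.27; in 4 animals 8 were lower and 1 higher. SLC17A7, the vesicular glutamate transporter VGLUT1, read 12.51, 13.55, 12.81, 12.71 and 12.63 in CA1 and 13.76, 14.13, 13.98, 13.96 and 13.80 in DG. The groups did not overlap, and the difference was -1.08 ± 0.11 (adjusted p = 0.00673). SYN2, a vesicle-tethering synapsin, read 10.84, 12.17, 11.45, 11.37 and 11.03 in CA1 and 12.23, 12.69, 12.46, 12.34 and 12.55 in DG, apart in all arrays, with differences of -1.08 ± 0.14 (adjusted p = 0.00871), -1.14 ± 0.17 and -1.12 ± 0.14 on 3 probe sets. PCLO, an active zone scaffold, differed by -0.99 ± 0.19 (adjusted p = 0.0216), and VAMP2, the vesicle SNARE, by -1.13 ± 0.24 (adjusted p = 0.0258). Postsynaptic scaffold genes had 3 called lower and 1 higher of 18, and 7 lower and 1 higher in 4 animals. CNIH2, an AMPA receptor auxiliary protein, read 10.23, 11.93, 12.13, 11.36 and 11.45 in CA1 and 12.67, 12.65, 12.66, 12.63 and 12.52 in DG, without overlap, and differed by -1.20 ± 0.24 (adjusted p = 0.0226). CNKSR2 and DLGAP3, scaffold proteins, were lower with a difference of -0.81 ± 0.17 (adjusted p = 0.0258) and -0.67 ± 0.13 (adjusted p = 0.0195). DLG1, a membrane-associated guanylate kinase, was higher by 0.50 ± 0.08 (adjusted p = 0.0144) on its brightest probe set, while 3 dimmer ones gave -0.50 to 0.20. Leaving out animal 2, 7, 10 or 11 in turn kept the direction of each called gene, at an adjusted p of 0.0282 to 0.100, and SLC17A7 stayed called in each case.

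Of 13 immediate early genes, which neurons switch on with activity, 3 were called higher and 2 lower in CA1. DUSP1, a phosphatase of MAP kinases, was higher without overlap by 0.69 ± 0.13 (adjusted p = 0.0190), as was NR4A1, an orphan nuclear receptor, with overlapping groups by 0.98 ± 0.21 (adjusted p = 0.0259). EGR2, a zinc finger factor, was higher in each animal, by 0.60 ± 0.15 on average (adjusted p = 0.0392). ARC, a dendritic regulator of AMPA receptors, was lower in each animal, with a difference of -0.47 ± 0.12 on average (adjusted p = 0.0432). The mean of the list differed by 0.10 to 0.52 toward CA1 in the 5 animals. When animal 2, 7, 10 or 11 was left out, the adjusted p of the called genes was 0.0664 to 0.131, with no change of direction.

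Lists of other cell types were read with and without animal 3. Oligodendrocyte and myelin genes had 0 of 9 called in either direction in 5 animals, with a median of 0.85, and 7 of 9 called higher in 4 animals, with a median of 1.25. Averaged over the list, CA1 exceeded DG by 0.93, 1.27, 0.68 and 1.48 in animals 2, 7, 10 and 11, and was 0.64 below DG in animal 3. MAL, a myelin proteolipid, read 12.57, 10.53, 12.89, 11.56 and 12.83 in CA1 and 11.25, 11.42, 11.13, 10.52 and 10.78 in DG. Its difference was 1.06 ± 0.36 (adjusted p = 0.0878) in 5 animals and 1.54 ± 0.15 (adjusted p = 0.000200) in 4. PLLP, plasmolipin, was called only without animal 3, at 1.51 ± 0.13 (adjusted p = 0.000139) against 1.06 ± 0.33 (adjusted p = 0.0712), and ASPA, which splits N-acetylaspartate, at 1.61 ± 0.24 (adjusted p = 0.00152) against 1.17 ± 0.37 (adjusted p = 0.0761). MBP, myelin basic protein, was not called in either fit: its brightest probe set, at 15.13 ± 0.17 (SD, n = 5) in CA1, differed by 0.09 ± 0.08 (adjusted p = 0.499), and a second by 0.53 ± 0.15, which was called without animal 3 (0.71, adjusted p = 0.00114). HAPLN2, a linker protein of the nodes of myelinated axons, differed by 1.21 ± 0.13 (adjusted p = 0.000311) in 4 animals and 0.85 ± 0.27 (adjusted p = 0.0721) in 5. In the precursor list 0 of 5 were called in 5 animals and 3 higher in 4, among them OLIG2, a lineage transcription factor, at 0.76 ± 0.14 (adjusted p = 0.00411), and SOX10, another, at 0.88 ± 0.11 (adjusted p = 0.000543), whose difference in animal 3 was -1.09. These glial differences stand beside the neuronal ones above in the same arrays, and their part in those was not tested.

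Astrocyte genes had 0 of 13 called in 5 animals, with a median of -0.03, and 3 lower in 4. GFAP, the astrocyte intermediate filament protein, read 14.40, 14.76, 14.43, 14.64 and 14.57 in CA1 and 14.76, 14.67, 14.69, 14.99 and 14.66 in DG. It differed by -0.19 ± 0.08 (adjusted p = 0.148) in 5 animals and by -0.26 ± 0.08 (adjusted p = 0.0331) in 4, but a dimmer GFAP probe set gave 0.17 ± 0.10. ALDH1L1, a folate enzyme of astrocytes, was lower in 4 animals with a difference of -0.93 ± 0.14 (adjusted p = 0.00160), against -0.66 ± 0.22 (adjusted p = 0.0877) in 5. SOX9, a glial transcription factor, was lower in 4 animals with a difference of -0.75 ± 0.16 (adjusted p = 0.00886), against -0.55 ± 0.20 (adjusted p = 0.0991) in 5. The list was divided: 6 of the 13 differed toward CA1 in 5 animals, among them S100B at 0.23 (adjusted p = 0.133). A dimmer NDRG2 probe set was called higher in 5 animals, at 0.68 ± 0.16 (adjusted p = 0.0326), and another gave -0.29 ± 0.24.

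Of 13 microglial and macrophage genes, 1 was called higher in CA1 and 0 lower in 5 animals, with a median of 0.36, and 5 were called higher and 0 lower in 4, with a median of 0.48. C1QA, a chain of complement C1q, read 10.65, 10.80, 11.04, 11.07 and 11.53 in CA1 and 10.39, 10.61, 10.65, 10.47 and 10.84 in DG, and differed by 0.42 ± 0.10 (adjusted p = 0.0343); a dimmer probe set gave -0.31 ± 0.14. TYROBP, a signalling adaptor of microglia, was called only without animal 3, at 0.87 ± 0.13 (adjusted p = 0.00142) against 0.62 ± 0.20 (adjusted p = 0.0782). P2RY12, a purinergic receptor of resting microglia, was called only in 4 animals too, at 0.58 ± 0.15 (adjusted p = 0.0184) against 0.50 ± 0.14 (adjusted p = 0.0567). Of 11 complement genes, 3 were called higher and 0 lower. CD55, which dissolves complement convertases on cell surfaces, read 9.41, 8.74, 9.47, 9.16 and 9.23 in CA1 and 7.82, 7.85, 8.35, 8.61 and 8.01 in DG. It was apart in all arrays and differed by 1.08 ± 0.15 (adjusted p = 0.0116), although 2 dimmer probe sets gave 0.49 ± 0.31 and 0.49 ± 0.20. CFD, complement factor D, was higher by 0.64 ± 0.17 (adjusted p = 0.0438). The called genes had an adjusted p of 0.0423 to 0.145 when animal 2, 7, 10 or 11 was left out, all in the same direction.

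Antigen presentation and interferon genes were mixed. Of 15 MHC genes, 3 were called higher and 1 lower, with a median of 0.10. The MHC genes of macaques are close copies of each other, so a probe set may read several of them. MAMU-DRA, a class II chain, was higher in CA1 by 0.83 ± 0.22 (adjusted p = 0.0466) in 5 animals and by 1.10 ± 0.13 (adjusted p = 0.000546) in 4, and CD74, its invariant chain, by 0.43 ± 0.11 (adjusted p = 0.0451). MAMU-A, a class I chain, was lower in each animal, with a difference of -0.39 ± 0.10 (adjusted p = 0.0384), although it ranged from 9.44 to 11.27 between the CA1 arrays. Of 16 interferon-response genes, 3 were called higher and 1 lower. IFI27, an interferon-induced protein, was higher without overlap by 0.83 ± 0.17 (adjusted p = 0.0226). BST2, the tether of budding viruses, was higher by 0.44 ± 0.09 (adjusted p = 0.0245), although a dimmer probe set gave 0.02 ± 0.12. OAS3, an antiviral sensor, was lower with a difference of -0.93 ± 0.17 (adjusted p = 0.0190), and its dimmer probe sets gave 0.18 ± 0.21 and -1.32 ± 0.21. An adjusted p of 0.0566 to 0.154, with the direction kept, was found for the called genes without animal 2, 7, 10 or 11.

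Endothelial and mural genes had 2 of 10 called higher and 0 lower, with a median of 0.23. CLDN5, a tight junction protein of brain vessels, read 9.73, 9.33, 9.29, 9.54 and 9.63 in CA1 and 9.24, 8.88, 8.70, 9.01 and 9.17 in DG. CA1 was above DG in every array, animal 3 included, and the difference was 0.50 ± 0.09 (adjusted p = 0.0184). TEK, the angiopoietin receptor, was higher by 0.44 ± 0.12 (adjusted p = 0.0453), with 0.15 ± 0.24 on a dimmer probe set. Choroid plexus and ependymal genes had 0 of 4 called in 5 and in 4 animals. Of the red blood cell genes, HBA differed by 0.53 ± 0.18 (adjusted p = 0.0878) and HBB by -0.01 ± 0.26 (adjusted p = 0.979), and neither was called. No called gene turned without animal 2, 7, 10 or 11, and the adjusted p was then 0.0687 to 0.145.

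**Figure D4:**
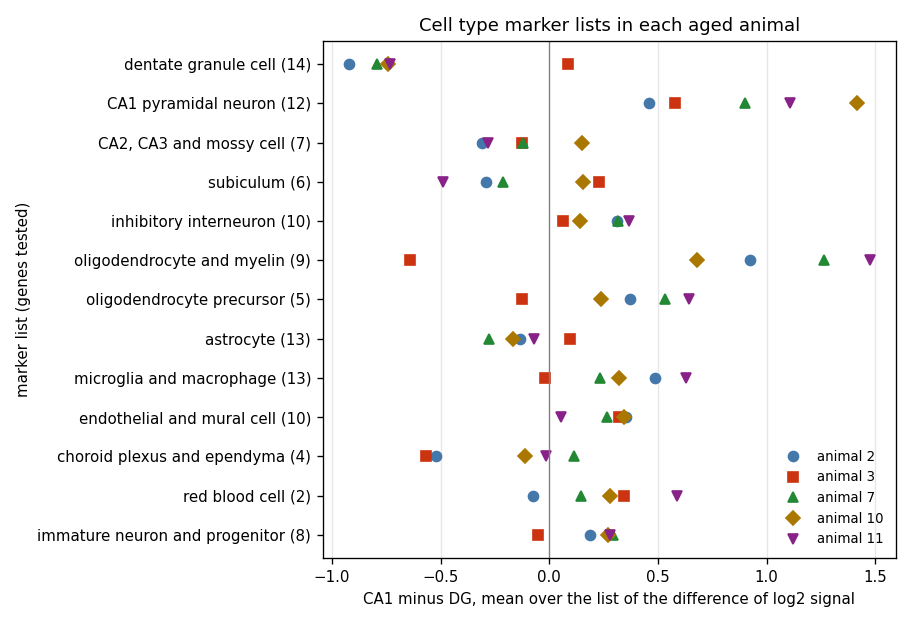
CA1 minus DG difference of log2 signal averaged over the tested genes of 13 cell type marker lists (horizontal axis), in each of 5 aged animals (symbols); the number of genes is in brackets. Animal 3 (squares) lies at 0.09 for granule cell genes, where the others lie at -0.92 to -0.73, and at -0.64 for myelin genes, where the others lie at 0.68 to 1.48.

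Genes of energy metabolism and protein synthesis were read in the same way. Of 35 oxidative phosphorylation genes, 0 were called in 5 animals and 3 higher in 4, with medians of 0.04 and 0.09. ATP5MC1, a c-subunit of ATP synthase, was one of the 3, at 1.20 ± 0.12 (adjusted p = 0.000267) in 4 animals and 0.85 ± 0.26 (adjusted p = 0.0699) in 5. Of 15 glycolysis genes, TPI1, triosephosphate isomerase, was the one called in 5 animals. It read 11.94, 12.59, 12.39, 12.41 and 12.31 in CA1 and 12.75, 13.18, 13.01, 12.95 and 13.00 in DG, was lower in CA1 in all 5 animals, at -0.81 to -0.54, and differed by -0.65 ± 0.07 (adjusted p = 0.00723), with -0.13 ± 0.24 on a much dimmer probe set. Of 22 ribosomal protein genes 1 was called higher, RPS26 at 0.24 ± 0.07 (adjusted p = 0.04998), and 1 lower, RPL22 at -0.49 ± 0.10 (adjusted p = 0.0278), whose other probe sets gave -0.06 ± 0.08 and -0.27 ± 0.27. In 4 animals 5 of the 22 were called higher and 2 lower, beside 15.5% and 10.9% of all named genes. In the steroid receptor list 1 of 10 was called: SGK1, a kinase induced by glucocorticoids, was higher by 0.68 ± 0.17 (adjusted p = 0.0425). With animal 2, 7, 10 or 11 left out instead, these called genes kept their direction at an adjusted p of 0.0308 to 0.162, and TPI1 stayed called in each case.

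The same comparison in the 6 young animals called 1177 probe sets higher in CA1 (4.44% of 26512) and 1365 lower (5.15%). Without young animal 5 it called 1409 higher and 1687 lower. Leaving that animal out moved the median difference of 15 granule cell genes from -0.59 to -0.80. The CA1 array of young animal 8 had a 3'/5' actin ratio of 3.43 (log2), against 0.54 to 1.41 in the other young arrays. The part of RNA quality in the young values was not tested. Of the 2900 called in aged animals, 2859 were also tested in young ones, and 98.71% had the same sign; 1315 were called in both with the same sign, which is 45.34% of the aged and 51.73% of the young calls. Across 9719 genes the aged and young differences had r = 0.829, a description across genes that share arrays and are not independent. Of the genes with large aged differences, RXFP1 had 1.88 ± 0.60 (adjusted p = 0.0792) and WFIKKN2 -2.88 ± 0.92 (adjusted p = 0.0776) in young animals, neither called there. The young difference was 2.54 ± 0.45 (adjusted p = 0.0182) for MET, -2.19 ± 0.42 (adjusted p = 0.0210) for RTP5, -2.44 ± 0.56 (adjusted p = 0.0327) for ADGRG2 and -2.58 ± 0.41 (adjusted p = 0.0144) for TSPAN18. PROX1 differed by -1.50 ± 0.32 (adjusted p = 0.0266) in young animals. Myelin genes, of which 4 of 9 were called higher in young animals, had a median of 1.05 there.

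**Figure D5:**
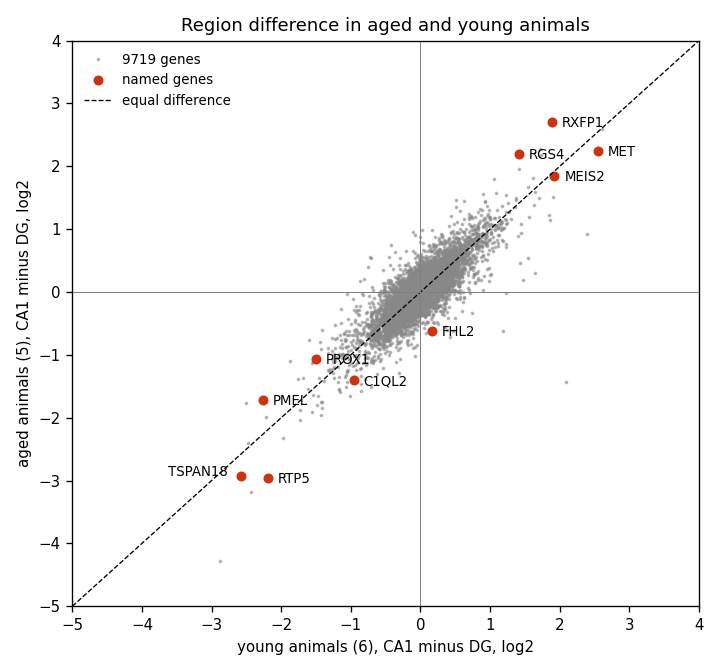
CA1 minus DG difference of log2 MAS5 signal in 6 young (horizontal axis) and 5 aged animals (vertical axis) for 9719 genes tested in both, with 10 named genes in red; the dashed line marks equal differences. The points follow the line (r = 0.829), and of the 10 genes in red FHL2, at 0.16 in young and -0.61 in aged animals, is the one with opposite signs.

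Whether the region difference depended on age was tested on the differences of the 11 animals, and 0 of 28850 probe sets were called (0%); 799 had an unadjusted p under 0.05, which is 2.77%. Without animal 3 there were again 0 calls, with 1468 (5.02%) at an unadjusted p under 0.05 and a smallest adjusted p of 0.62. Without young animal 8, whose CA1 array had the high actin ratio, there were 0 calls and 1188 (4.17%) at an unadjusted p under 0.05. On simulated data the same test found 43.5% of probe sets made to differ by 1 on the log2 scale, so differences of that size, and smaller ones, could pass unseen. The simulated noise was independent between probe sets and arrays, with no array set apart as CA1 of animal 3 was. The rate need not hold for the real arrays. The genes with the smallest p are therefore given as values only. FHL2, a LIM domain cofactor, differed by -0.61 ± 0.13 in aged and 0.16 ± 0.13 in young animals. TESC, the calcium-binding protein tescalcin, differed by -0.65 ± 0.16 in aged and 0.08 ± 0.13 in young animals. CXXC5, a zinc finger inhibitor of Wnt signalling, differed by 0.44 ± 0.09 and 0.05 ± 0.07, on a probe set that 3 others did not match (-0.24 to -0.07 in aged animals). MYCBPAP, a MYC-binding-protein partner, differed by -0.62 ± 0.20 in aged and 1.19 ± 0.35 in young animals. Its aged size is not well bounded, since 4 CA1 signals and 1 DG signal were below their array medians. Each of these had an adjusted p of 1.00 for the dependence on age.

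Arrays that had no part in the 4-animal calls gave a further description. Of the 3135 probe sets higher in CA1 in those 4 animals, the young mean had the same sign in 96.91%, with a median difference of 0.38 against 0.62 in the 4 aged animals. Animal 3 had the same sign in 52.03%, with a median of 0.02. Of the 3368 lower ones, the young mean had the same sign in 97.95% and animal 3 in 56.86%, with a median of -0.06 against -0.64. The unpaired CA1 array of animal 6 was nearer to the CA1 mean than to the DG mean of the 4 animals for 56.36% of the higher and 54.01% of the lower probe sets, and the CA1 array of animal 3 for 21.59% and 27.08%. In animal 6, PROX1 read 10.11 and MET 9.27, inside the CA1 range of the 4 animals, while C1QL2 read 11.19 and RTP5 11.15, above it.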

How the data were processed

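The authors deposited MAS5 signal intensity values on a linear scale, per the submitters' processing notes, for 52865 probe sets; the version is not given in the sources used here. Every array had been scaled, its mean after trimming 2% at each end lying at 500.028 to 500.033 on the aged arrays. Here 99 control probe sets were left out, zeros were raised to 1 and log2 was taken. Names came from the platform annotation: 24956 probe sets had a single symbol, 361 several and 27449 none, and 24616 matched a RefSeq gene. A gene was read from its brightest single-symbol probe set. Tests covered probe sets brighter than the array median in at least as many arrays as the fit had pairs, and in at least 5 arrays for the dependence on age. CA1 minus DG was fitted with limma 3.58.1 in R 4.3.3 (lmFit, eBayes with an intensity trend, animal as a block), with Benjamini-Hochberg adjustment over all probe sets tested; the dependence on age was fitted to the differences of 11 animals. All p-values are two-sided. With 5 pairs an exact sign-flip test cannot go below p = 0.0625, so it was not used. The calls come from limma. The methods' paired t-test, run as an alternative on the 5 pairs, called 0 higher and 0 lower after adjustment.

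The pairing comes from the labels, where both regions of an animal share a number and a hippocampus. As a check, deviations from the group mean correlated by 0.15 to 0.41 within the 5 animals, and each array correlated best with its own partner. Arrays of a region correlated by 0.924 to 0.938 and none were identical.

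The members and gene lists were chosen with earlier results of these data known. Genes were named by rule: the 10 largest called differences in each direction with a common sign in all animals of the fit, with 5 and with 4 animals; up to 4 genes of smallest p per list; the 5 of smallest p in each direction for age; and PROX1, C1QL2, MET, MEIS2, WFS1, GFAP and MBP. The text names part of these, picked after the values were seen. Alternatives covered the offset, scaling, filter, trend, actin ratio, block, probe set choice, the methods' t-test and each pair left out. On simulated data with 200 probe sets changed by 1 on the log2 scale, the 5-animal fit recovered 61.5% with 5 false calls, and the 4-animal fit 46.5% with 2. The 4-animal simulation used a filter of 5 arrays, with 25742 probe sets tested, and so differs from the 4-animal fit with 26696. Noise was drawn independently for each probe set and array, so these rates need not hold for the real arrays.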

Additional observations from a re-analysis of the deposited data

Results flagged for a closer look

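Among 146 named genes tested, the CA1 minus DG difference of 1 animal stood far from the other 4 in 13 genes by Dixon's ratio (above 0.71), and in each of the 13 it was animal 3. Chance flags about 1 in 20 independent groups, but that rate is no yardstick here: the genes share the same arrays, and some were named for their difference without animal 3. Where DG was the higher region in the other animals, the difference of animal 3 was 0.40 for PROX1 (others -1.63 to -1.12), 0.77 for GRP (others -3.07 to -2.23), 0.25 for WFIKKN2 (others -6.12 to -4.89), 0.34 for STXBP6 (others -1.69 to -1.29) and 0.13 for ZBTB20 (others -1.13 to -0.77). It was 0.23 for WFS1 (others -0.24 to -0.14), -0.29 for KCNIP2 (others -1.78 to -1.48) and -0.57 for SLC17A7 (others -1.25 to -1.17). Where CA1 was the higher region in the others, animal 3 had 0.084 for SFRP1 (others 1.91 to 2.52), -0.041 for GRIK1 (others 0.89 to 1.24) and 0.047 for CACNA2D2 (others 0.98 to 1.27). It had -2.22 for NIPAL4 (others 1.55 to 2.66) and -1.09 for SOX10 (others 0.59 to 1.08). Of the 118 called genes that the rule names, animal 3 had the smallest difference of the 5 animals in 81 and the opposite sign in 17. The cause was not tested.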

How the results depend on the processing

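Probe sets called at an adjusted p under 0.05 numbered 1320 higher and 1580 lower. With each pair left out in turn the counts ran from 45 to 3135 higher and from 42 to 3368 lower, the highest without animal 3. Without a replicate block 783 were higher and 1098 lower. The higher calls were 822 with no filter, and 572 higher and 764 lower were called with no intensity trend. With the actin ratio as a covariate 297 were higher and 479 lower. With CA1 of animal 6 added and the animal as a random block 2000 were higher. The methods' t-test gave 0 higher and 0 lower after adjustment, and 6461 at an unadjusted p under 0.05. The causes of these shifts were not tested. Offset, scaling, stricter filter and the fit of 11 animals stayed within 1.5 times. Of the 118 called genes, 93 stayed called without the block, 60 with the actin ratio and 103 with the mean of a gene's probe sets, where CXXC5 reversed to -0.022. Only 13 of the 118 stayed called with each of the 5 pairs left out, SH2D4B among them, which reached the filter through CA1 alone. The dependence on age gave 0 calls in each setting run. The number of arrays limits all values.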

Other observations

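The unpaired CA1 array of animal 6 entered no paired comparison, and for 5 genes picked after their values were seen it lay between the regions. Its 3'/5' actin ratio was 1.92 (log2), above the 0.52 to 1.44 of the 10 paired aged arrays, and the part of RNA quality in its values was not tested. TSPAN18 read 10.62 in it, against 7.06 to 8.49 in the CA1 arrays of animals 2, 7, 10 and 11 and 11.28 to 11.82 in the DG arrays. AQP3 read 10.61, against 8.06 to 9.08 in CA1 and 10.67 to 11.46 in DG. KCNIP2 read 11.37, against 10.23 to 10.68 in CA1 and 11.85 to 12.16 in DG. NRP1 read 9.65, against 8.58 to 9.26 in CA1 and 10.35 to 10.97 in DG. SFRP1 read 9.88, against 10.54 to 11.58 in CA1 and 8.50 to 9.06 in DG. MET at 9.27 and MEIS2 at 10.55 were above every DG array.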
